A study of Sus scrofa with 11 samples.

Results

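The genes of the cytosolic ribosome's own proteins were followed through pig liver after irradiation. They were taken by symbol (RPL or RPS followed by a number, the stalk proteins RPLP0 to RPLP2, and RPSA, leaving out the RPS6 kinases), reaching 1 FPKM or more in 2 or more libraries. FPKM is the number of sequenced fragments of a gene, divided by the length of its transcript and by the mapped fragments of the library, so it can be compared between genes. The rule found 50 genes among the 12505 of the deposited table, 25 of the large subunit and 25 of the small, and all 50 passed the filter on low values used for the tests. The pig gene table used for names lists 84 symbols that match the same pattern, so the set is not complete, and the other symbols are not analysed here.

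RNA-seq was done on 11 libraries of liver from wild-type pigs (genotype label WT). The 2 control libraries are labelled day 0, and there are 3 libraries each at 20 Gy, 30 Gy and 40 Gy, all labelled day 35. Irradiation and the time label therefore cannot be told apart in any comparison with control, while the 3 doses share a day and can be compared with each other. The labels do not tie libraries to animals, and the p-values cover only the spread among these libraries, part of which may be technical.

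The cytosolic ribosome reads mRNA with its small subunit and joins amino acids with its large subunit, and each subunit is RNA clothed with many small proteins, nearly all present in a single copy. Their mRNAs are among the most abundant of most cells. Most carry a terminal oligopyrimidine tract at the 5′ end, through which the growth-related mTOR pathway and LARP1 control their translation and stability together. Several free ribosomal proteins, RPL5, RPL11 and RPL23 among them, also bind MDM2 and stabilise p53 when ribosome assembly is disturbed. The liver makes large amounts of secreted protein and depends on this machinery.

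The labels give both liver as tissue and hepatocyte as cell type. The hepatocyte markers fixed for this check (8 of 10 in the table, ALB and APOC3 among them) summed to 63095 to 97352 FPKM in the controls, 59033 to 70731 at 20 Gy, 64167 to 76177 at 30 Gy and 33900 to 36511 at 40 Gy. Markers of other liver cells were present too, and some moved with the groups. Summed markers of endothelium (10 of 10 in the table) ranged from 305 to 361 FPKM in the controls and from 121 to 259 in the irradiated libraries. Gene by gene, 7 of the 10 had a log2 change below 0 in irradiated against control. At 40 Gy 6 did, with a median of -0.13. Those of B and plasma cells (6 of 9 in the table) were at 42.3 to 46.6 in the controls and 74.9 to 113 at 40 Gy. In that list JCHAIN, the joining chain of secreted antibodies, went from a mean of 9.26 to one of 60.8 FPKM. CD79A, part of the B cell receptor, went from 31.99 to 15.8 and was called lower (log2 change -0.99, adjusted p = 0.0159 by limma). JCHAIN (log2 change 2.56), MZB1 (1.94) and IRF4 (0.88) were called higher, 3 of the 5 tested, where 7.39% of all genes were called at 40 Gy against control. The markers of neutrophils (4 of 8 in the table, with S100A8 and S100A12 at 0 in some libraries) were at 1.65 to 4.74 in the controls and 8.42 to 18.2 at 40 Gy. Stellate and fibroblast markers (10 of 10) stood at 54.5 to 74.5 in the controls, 127 to 182 at 20 and 30 Gy and 42.9 to 374 at 40 Gy. There library 1 held the 374, and libraries 2 and 3 were at 51.8 and 42.9. Library 1 at 40 Gy also stood apart in macrophage markers (8 of 10), at 1172 against 514 and 509. In T and NK cell markers (6 of 12) it was at 42.3 against 13.8 and 10.5. Its hepatocyte sum did not stand apart (36128 against 33900 and 36511). Bile duct markers (6 of 8) summed to 213 to 272 in the controls and 68.9 to 162 in the irradiated libraries, although 2 of the 5 tested had a log2 change below 0. Erythroid markers (4 of 7, with HBM and AHSP at 0 in some libraries) were at 109 to 833 in the controls and 11.7 to 55.4 at 40 Gy. The part of these shifts in the results on ribosomal protein genes was not tested, and in tissue fewer cells of a type cannot be told apart from less RNA per cell.

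Libraries 1 and 2 at 30 Gy were almost the same, with a spread of 0.19 between their log2 values over 8970 genes, and are counted as 1 sample in every mean ± SD. The limma fits keep them as separate libraries, so the log2 changes, SEs and p-values that involve 30 Gy or the shared spread take them as 2. Each mean is given ± SD over the libraries, with n = 2 for control, 3 for 20 Gy, 2 for 30 Gy and 3 for 40 Gy. Library 3 at 20 Gy and library 3 at 30 Gy were as close (0.20) although their labels give different doses, whereas the next closest pair was at 0.34. The libraries of these doses fell into 2 sets that cross the labels. Library 1 at 20 Gy lay at 0.34 from library 3 of each dose. Library 2 at 20 Gy lay at 0.35 and 0.38 from libraries 1 and 2 at 30 Gy, but at 0.61 and 0.67 from libraries 1 and 3 at 20 Gy. Macrophage markers (8 of 10 in the table) summed to 338, 342 and 352 FPKM in the first set and 726, 729 and 722 in the second. Library 1 at 40 Gy had the lowest summed FPKM, 520839, and library 3 at 40 Gy the highest, 949840. At 40 Gy the spread between library 1 and libraries 2 and 3 was 0.93 and 0.96, where that between libraries 2 and 3 was 0.37.

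Ribosomal protein mRNA took a smaller share of the library after irradiation. The 50 genes together held 4.42% and 4.74% of the summed FPKM in the 2 controls. At 20 Gy they held 3.25%, 3.52% and 3.65%, at 30 Gy 3.84%, 3.75% and 3.71%, and at 40 Gy 3.21%, 2.82% and 3.36%. All 9 irradiated libraries lay below both controls, with no overlap. The group means were 4.58% ± 0.23 (SD, n = 2) for control, 3.47% ± 0.20 (SD, n = 3) for 20 Gy, 3.75% ± 0.061 (SD, n = 2) for 30 Gy and 3.13% ± 0.28 (SD, n = 3) for 40 Gy.

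The 2 subunits were lower by nearly the same proportion. The 25 large-subunit genes summed to 17375 ± 540 FPKM in control, 11038 ± 1331 at 20 Gy, 13300 ± 662 at 30 Gy and 11662 ± 3661 at 40 Gy. The 25 small-subunit genes summed to 19290 ± 960, 12325 ± 1093, 14293 ± 1606 and 12517 ± 3971 FPKM in the same order. The ratio of the large to the small sum was 0.90 ± 0.017 in control, 0.89 ± 0.057 at 20 Gy, 0.93 ± 0.059 at 30 Gy and 0.93 ± 0.0065 at 40 Gy. At 20 and 30 Gy the libraries overlapped the controls (0.889 and 0.913), while at 40 Gy they were at 0.940, 0.927 and 0.931, above both. Over both subunits the means were 36.3%, 24.7% and 34.1% below control at 20, 30 and 40 Gy. The summed FPKM of all genes was itself 16.3%, 8.38% and 3.71% below control in that order. As a share of that sum, the means of both subunits were 24.2%, 18.1% and 31.7% below control. The 40 Gy libraries ranged most widely, with sums over both subunits of 16707 FPKM in library 1, 23868 in library 2 and 31962 in library 3. Over all genes these libraries summed to 520839, 846576 and 949840 FPKM.

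**Figure D1:**
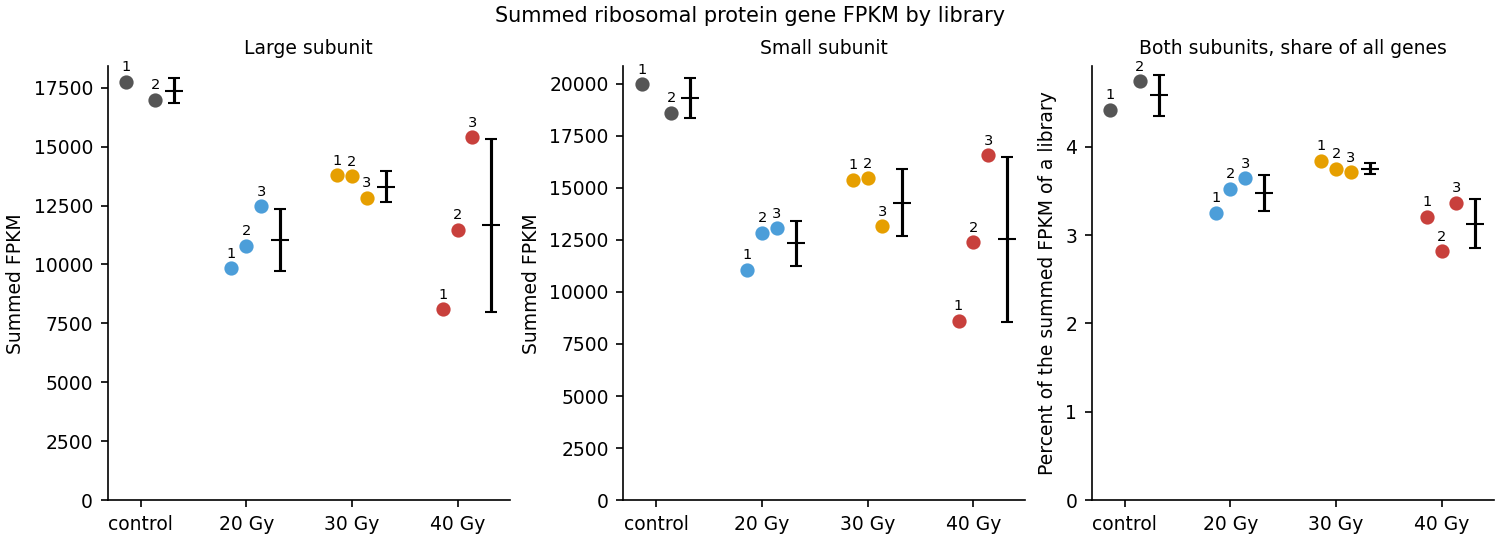
Summed FPKM of the 25 large-subunit genes (left) and the 25 small-subunit genes (middle), and the percent of each library's summed FPKM taken by all 50 (right), by group. Each point is 1 library, numbered as in its label, and the dash with bars is the group mean ± SD with libraries 1 and 2 at 30 Gy counted as 1 sample. In the right panel the controls sit at 4.42% and 4.74% and the irradiated libraries between 2.82% and 3.84%.

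Gene by gene, the shift was wide, but few genes passed the test on their own. In irradiated against control (control set against the average of the 3 doses, limma on log2(FPKM + 1)), 49 of the 50 genes had a log2 change below 0, against 48.7% of the 11644 genes tested. Their median was -0.55, beside 0.01 for all genes (-0.31 beside -0.01 after quantile normalization), with -0.57 for the large subunit and -0.52 for the small. In 23 of the 50 genes (46%) every irradiated library lay below both controls, a pattern found in 7.86% of all genes. After quantile normalization 9 genes showed it, and at 30 Gy and 40 Gy alone 23 and 17 did, where 41 and 28 did without it. The share of all genes with the pattern after quantile normalization was not computed, so those counts have no background beside them. An unadjusted p under 0.05 with a lower level was found in 28 of the 50 genes, against 11.2% of all genes. After adjustment over all 11644 genes, 2 of the 50 (4%) were called at an adjusted p under 0.05, both lower, RPS28 among them. The share called among all genes was 4.71%, and 2.84% were called lower, so the called genes alone did not set the ribosomal protein genes far from the background. The count moved with single libraries: it was 9 without library 1 or without library 3 at 40 Gy, and 0 without either control library, without library 1 at 20 Gy or without library 2 at 30 Gy, and 1 without any other library. It was 0 as well without library 3 at 20 Gy and at 30 Gy together. Of all genes, 548 were called with all libraries, 1416 without library 1 at 40 Gy and 567 without library 3 at 40 Gy. In the fits with a count of 0, 320 of all genes were called without library 1 at 20 Gy and 327 without library 2 at 30 Gy. Without library 3 at 20 Gy and at 30 Gy together 290 were. The fits without a control library keep a single control, and fewer of all genes were called in them too.

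**Figure D2:**
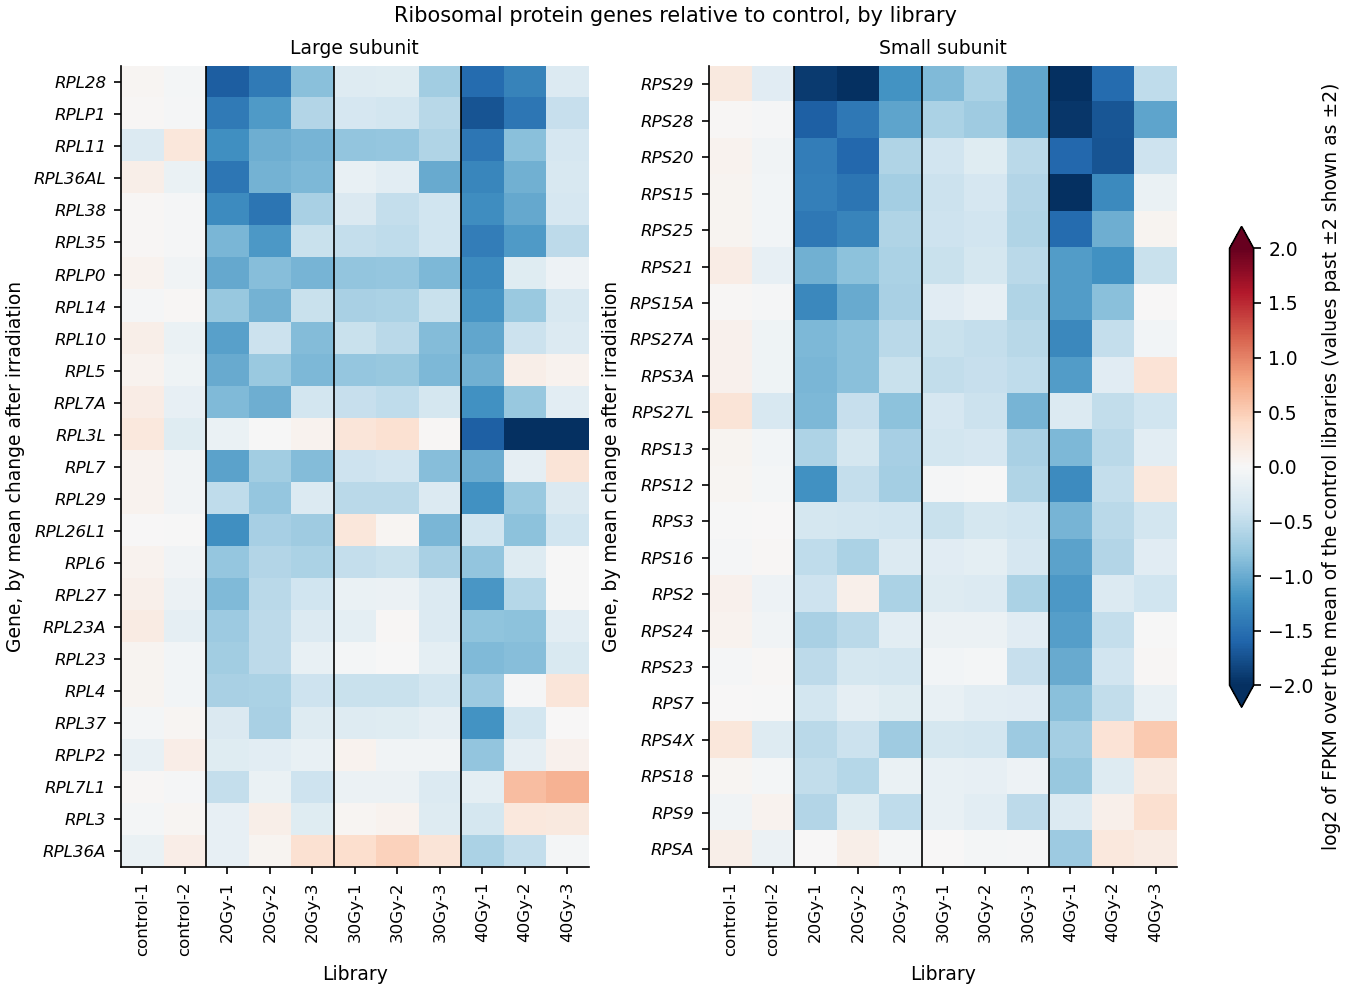
Log2 of the FPKM of each ribosomal protein gene over its mean in the 2 control libraries, for the 25 large-subunit genes (left) and 22 of the 25 small-subunit genes (right), with libraries in columns and genes ordered by their mean change after irradiation. Blue is below and red above the control mean, and values past ±2 are shown at the end of the scale. Most rows are blue from 20 Gy to 40 Gy, RPL3L is dark only in the 40 Gy columns, and RPL3, RPL36A, RPL7L1 and RPSA stay pale or turn red in some libraries.

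RPS28, a small protein near the mRNA exit site of the small subunit, was the third most abundant gene of that subunit and had the lowest adjusted p of the 50 in irradiated against control. Its gene lies on chromosome 2 from 70953706 to 70954862 (Sscrofa11.1) and overlaps NDUFA7. It stood at 2110 and 2023 FPKM in the controls. It was at 670, 770 and 999 at 20 Gy, at 1326, 1261 and 1010 at 30 Gy and at 538, 633 and 999.7 at 40 Gy, so every irradiated library lay below both controls. RPS28 fell by 1.24 in log2 units (SE 0.26, adjusted p = 0.0247) in irradiated against control. Its log2 change was -1.36 (SE 0.30, adjusted p = 0.0324) at 20 Gy, -0.79 (adjusted p = 0.211) at 30 Gy and -1.56 (SE 0.30, adjusted p = 0.0140) at 40 Gy. The sign was negative in all alternatives, but the call was lost in 6 of 21 of them for irradiated against control, in 11 of 22 at 20 Gy and in 5 of 22 at 40 Gy, with adjusted p up to 0.179, 0.179 and 0.145. The losses included the fits without either control library (0.173 and 0.171 for irradiated against control), and, for that comparison, those without library 1 at 20 Gy (0.0514) or library 2 at 30 Gy (0.0520). At 20 Gy they also included those without each 20 Gy library (0.133, 0.0635 and 0.0505) and without library 1 or 2 at 30 Gy (0.0618 and 0.0626), and at 40 Gy the one without library 2 at 40 Gy (0.0534). The overlapping NDUFA7 was listed at only 1.58 ± 0.10 FPKM in control, with a log2 change of -0.00 (adjusted p = 0.989).

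Other small-subunit genes had changes of like size with a wider spread. RPS29, a small zinc-binding protein of the subunit head, was at 684 and 506 FPKM in the controls, 158, 143 and 260 at 20 Gy, 324, 384 and 288 at 30 Gy and 137, 206 and 419 at 40 Gy. All irradiated libraries lay below both controls, and its log2 change was the lowest of the 50 in irradiated against control, -1.30 (SE 0.37, adjusted p = 0.0779). Without library 1 or without library 3 at 40 Gy, RPS29 was called lower. RPS20 was at 742 ± 51.1 FPKM in control and 341 ± 129 at 20 Gy, 556 ± 60.8 at 30 Gy and 343 ± 184 at 40 Gy, with a log2 change of -0.93 (adjusted p = 0.164).

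At the other end, some small-subunit genes kept close to the control level. RPSA, which is also known as a laminin receptor, averaged 495 ± 56.7 FPKM in control, 505 ± 29.3 at 20 Gy, 489 ± 3.74 at 30 Gy and 476 ± 152 at 40 Gy, with a log2 change of -0.03 (SE 0.24, adjusted p = 0.960). The libraries overlapped the controls at each dose, and the sign of this change turned with quantile normalization and with equal totals, though not with scaling by median ratio. RPS9 had a log2 change of -0.23 (SE 0.21, adjusted p = 0.587), with 562 ± 40.9 FPKM in control and 591 ± 119 at 40 Gy. RPS3, which also takes part in DNA repair, was at 433.0 and 433.4 FPKM in the controls and at 227.5 to 338.6 in the irradiated libraries. The groups did not overlap, yet its log2 change of -0.46 (SE 0.18) had an adjusted p of 0.185. RPS2, the most abundant of the 50 by its mean of 1831 FPKM, was at 2282 ± 206 in control and 1881 ± 505, 1690 ± 304 and 1552 ± 460 at 20, 30 and 40 Gy. It overlaps RNF151 and NDUFB10 in the gene table.

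In the large subunit no gene was called in irradiated against control, where 14 of the 25 had an unadjusted p under 0.05 with a lower level (11.2% of all genes). The acidic stalk recruits the elongation factors, and none of its 3 genes was called. RPLP1 stood at 2747 and 2641 FPKM in the controls, 1006, 1225 and 1799 at 20 Gy, 2144, 2090 and 1835 at 30 Gy and 817, 985 and 1952 at 40 Gy. Every irradiated library was below both controls, with a log2 change of -0.89 (SE 0.32, adjusted p = 0.153). RPLP0, the base of the stalk, had a log2 change of -0.76 (SE 0.27, adjusted p = 0.1505), with 1105 ± 74.4 FPKM in control, 578 ± 35.5 at 20 Gy, 616 ± 34.1 at 30 Gy and 809 ± 306 at 40 Gy. RPLP2 overlapped with control at 30 and 40 Gy, at 1403 ± 189 FPKM in control and 1222 ± 36.9, 1372 ± 53.6 and 1178 ± 341 at 20, 30 and 40 Gy. Its log2 change was -0.16 (SE 0.23, adjusted p = 0.737), and the difference between these genes was not tested.

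The 3 proteins known for binding MDM2 were lower in most libraries and none was called. RPL11 was at 697 and 988 FPKM in the controls, 361, 430 and 440 at 20 Gy, 489, 495 and 557 at 30 Gy and 311, 473 and 666 at 40 Gy. No irradiated library reached the lower control, and the log2 change was -0.85 (SE 0.27, adjusted p = 0.106). RPL5 stood at 312 and 279 in the controls, 146, 176 and 159 at 20 Gy and 172, 175 and 159 at 30 Gy. At 40 Gy it was at 151, 320 and 312, so libraries 2 and 3 of that dose were at the control level and library 1 was not. These FPKM are not rescaled, and library 1 summed to 520839 over all genes, against 846576 and 949840 in libraries 2 and 3. RPL5 had log2 changes of -0.88 (SE 0.31, adjusted p = 0.133) at 20 Gy, -0.80 (SE 0.31, adjusted p = 0.216) at 30 Gy and -0.25 (SE 0.31, adjusted p = 0.649) at 40 Gy. RPL23 averaged 648 ± 33.5 FPKM in control and 479 ± 97.3, 602 ± 54.0 and 411 ± 97.7 at 20, 30 and 40 Gy, with a log2 change of -0.40 (SE 0.22, adjusted p = 0.334) over the doses. Without library 1 at 40 Gy, RPL11 (adjusted p = 0.0312) and RPL5 (0.0327) were called lower in irradiated against control, and without library 3 at 40 Gy RPL11 was (0.0477).

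RPL28 had the lowest log2 change of the large subunit, -0.92 (SE 0.32, adjusted p = 0.147), with 347 and 327 FPKM in the controls and 107 to 284 in the irradiated libraries. RPL3, which lines the path to the peptidyl transferase centre, was among the closest to control: it was at 493 and 516 in the controls, 450, 546 and 426 at 20 Gy, 521, 528 and 424 at 30 Gy and 395, 582 and 577 at 40 Gy. Its log2 change was -0.04 (SE 0.21, adjusted p = 0.933), and the sign turned with quantile normalization and with equal totals, though not with scaling by median ratio. RPL36A had the only change above 0 in irradiated against control, 0.02 (SE 0.20, adjusted p = 0.976), and its closely related copy RPL36AL one of -0.79 (SE 0.29, adjusted p = 0.167). Reads of such near-identical copies, and of the processed pseudogenes that most of these genes have, may be split between loci, so their levels are uncertain.

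At each dose most of the genes lay below control. At 20 Gy 48 of the 50 genes had a log2 change below 0 (52.7% of all genes), with a median of -0.72 beside -0.03 for all genes (-0.37 beside -0.05 after quantile normalization). All 20 Gy libraries lay below both controls in 45 of the 50 (90%, against 23.2% of all genes), and 1 gene, RPS28, was called, which is 2% beside 4.23% of all genes, or 2.2% called lower. The log2 change was at or below -1 in 12 of the 50, against 3.87% of all genes. Library 1 at 40 Gy enters this comparison only through the shared spread. Without it 20 of the 50 were called lower (1644 of all genes were called, beside 492 with all libraries). Without library 3 at 40 Gy 5 of the 50 were (501 of all genes were called). None was without library 1, 2 or 3 at 20 Gy (167, 506 and 258 of all genes were called). The same held without library 1 or 2 at 30 Gy (287 and 295 of all genes). The call was also lost without either control library, where a single control is left.

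At 30 Gy 48 of the 50 were below 0 (52.6% of all genes), with a median of -0.42 beside -0.02 (-0.19 beside -0.03 after quantile normalization). All 30 Gy libraries lay below both controls in 41 of the 50 (82%, against 23.3% of all genes). None was called by limma, beside 3.03% of all genes, and 5 had an unadjusted p under 0.05, all lower (8.83% of all genes were lower at that level). The smallest adjusted p was 0.162. Without library 1 at 40 Gy 3 genes were called lower, RPL5 and RPLP0 among them. In that fit 1110 of all genes were called, beside 353 with all libraries.

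At 40 Gy 46 of the 50 were below 0 (45.2% of all genes), with a median of -0.60 beside 0.06 (-0.30 beside 0.02 after quantile normalization). All 40 Gy libraries lay below both controls in 28 of the 50 (56%, against 17.9% of all genes). Called were 3 genes, RPL3L and RPS28 among them, all lower, which is 6% of the 50 beside 7.39% of all genes, or 4.41% called lower. The log2 change was at or below -1 in 9 of the 50, against 5.65% of all genes. Without library 3 at 40 Gy 11 of the 50 were called, all lower, where 576 of all genes were called, beside 861 with all libraries. All 40 Gy libraries left then lay below both controls in 42 of the 50, and the share of all genes was not computed. Without library 2 at 40 Gy RPL3L alone was called, where 354 of all genes were called. RPL3L kept its call and the others lost theirs without either control library too, where a single control is left.

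These 3 comparisons share the control libraries, and their numbers are given side by side only. Tested directly, none of the 50 genes was called by limma at 30 Gy against 20 Gy, nor any of all genes (0%), while 4 of the 50 had an unadjusted p under 0.05, all higher at 30 Gy (1.06% of all genes). In 47 of the 50 the log2 change of 30 Gy against 20 Gy was above 0, with a median of 0.26 beside 0.01 for all genes, of which 48% were below 0. All 30 Gy libraries lay above all 20 Gy libraries in 15 of the 50 genes (5.11% of all genes). The libraries of these doses fell into 2 sets that cross the dose labels. The near-identical libraries 3 of the 2 groups enter both sides of this comparison. Without them the median was 0.39 beside 0.02, and 41 of the 50 did not overlap (26.6% of all genes). Without library 3 at 20 Gy alone 29 did not (11.8%), and without library 3 at 30 Gy alone 35 (21%). With libraries 1 and 2 at 30 Gy averaged the median was 0.25 and the count 15. Rescaled to equal totals, the median was 0.11 beside -0.11 for all genes, with 36 of the 50 above 0.

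RPL3L was the exception among the 50, in level and in pattern. It is a paralog of RPL3 known for replacing it in skeletal muscle and heart, and its gene lies on chromosome 3 from 40004907 to 40016702, where it overlaps NDUFB10. Its mean of 11.6 FPKM was the lowest of the set, whose median was 496 FPKM. It stood at 16.3 and 11.9 FPKM in the controls, 12.9, 13.98 and 14.7 at 20 Gy, 16.7, 17.3 and 14.3 at 30 Gy, and 4.57, 2.48 and 2.03 at 40 Gy. The 40 Gy libraries were below every other library, and the controls overlapped with 20 and 30 Gy.

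RPL3L fell by 1.94 in log2 units (SE 0.25, adjusted p = 0.00285) at 40 Gy against control. It had changes of -0.01 (SE 0.25, adjusted p = 0.989) at 20 Gy and 0.19 (SE 0.25, adjusted p = 0.772) at 30 Gy. The doses differed when compared directly: RPL3L was lower by a log2 change of -1.93 (SE 0.23, adjusted p = 9.73e-04) at 40 Gy than at 20 Gy and by -2.13 (SE 0.23, adjusted p = 7.03e-04) at 40 Gy than at 30 Gy. The call against 20 Gy was kept in all 22 alternatives (adjusted p up to 0.0367). The call against control was lost in 1 of 22, the fit on the compared groups alone (0.0851), where 48 of all genes were called. That against 30 Gy was lost in 1 of 22, the fit with libraries 1 and 2 at 30 Gy averaged and library 3 at 20 and at 30 Gy left out. In that fit, which keeps a single 30 Gy sample, the log2 change was -2.21. The overlapping NDUFB10 had log2 changes of -0.78 (adjusted p = 0.211) at 40 Gy against control and -0.01 (adjusted p = 0.991) at 40 Gy against 20 Gy. RPL3 itself was at 504 ± 16.3 FPKM in control and 518 ± 106 at 40 Gy.

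**Figure D3:**
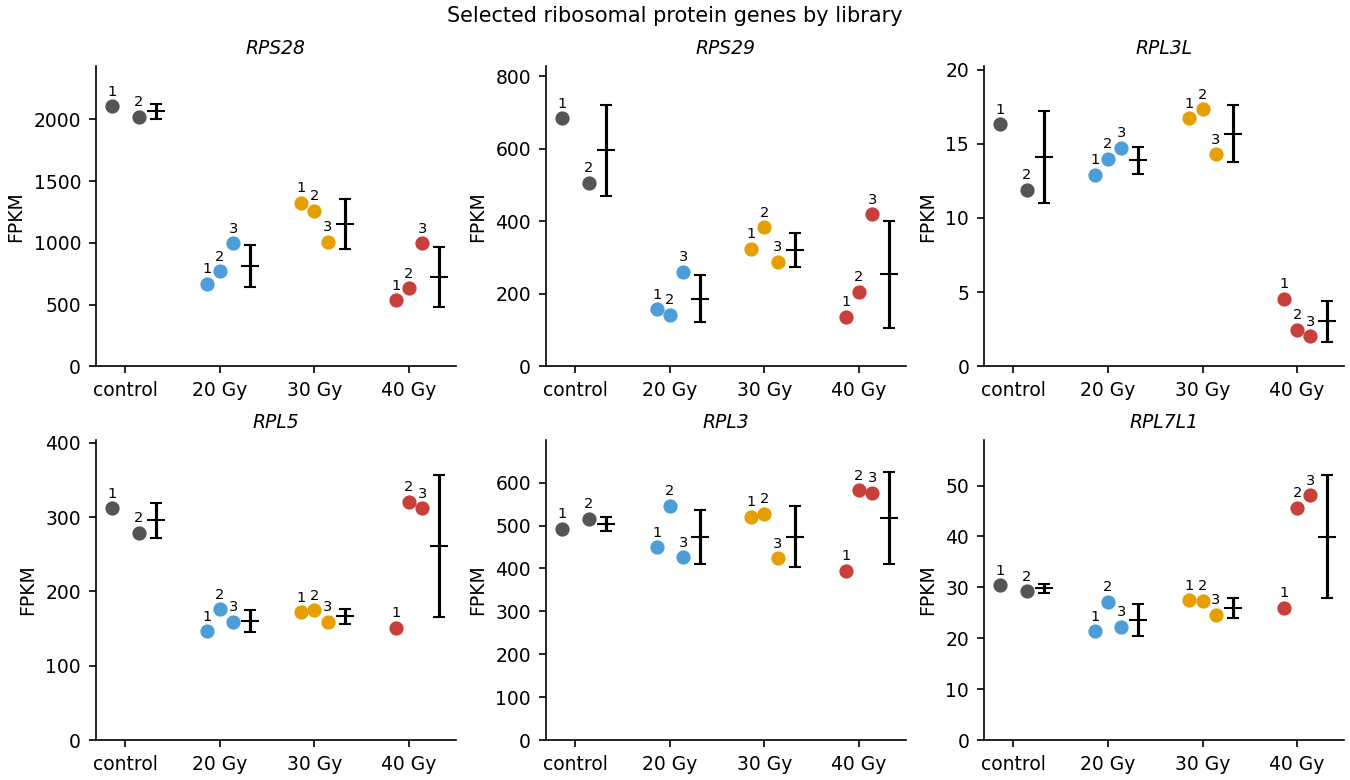
FPKM of RPS28, RPS29, RPL3L, RPL5, RPL3 and RPL7L1 in each library, by group, with the group mean ± SD beside the points and libraries 1 and 2 at 30 Gy counted as 1 sample. RPS28 and RPS29 are below both controls in every irradiated library, and RPL3L only at 40 Gy. RPL5 and RPL7L1 separate library 1 from libraries 2 and 3 at 40 Gy, in FPKM not rescaled to equal library totals.

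The other paralogs were low in level as well. RPL7L1, an RPL7-like protein that acts in the assembly of the large subunit, averaged 29.8 ± 0.869 FPKM in control, 23.6 ± 3.15 at 20 Gy, 26.0 ± 1.96 at 30 Gy and 39.9 ± 12.1 at 40 Gy. In libraries 2 and 3 at 40 Gy it was at 45.6 and 48.1, above all other libraries, and in library 1 at 26.0. Those FPKM are not rescaled, and library 1 summed to 520839 over all genes, against 846576 and 949840 in libraries 2 and 3. The gap to library 1 may therefore be one of library totals, which was not tested. Its log2 change at 40 Gy against 20 Gy was 0.69 (SE 0.23, adjusted p = 0.0658). RPL26L1 averaged 57.4 ± 0.110 FPKM in control and 31.9 ± 6.53, 46.8 ± 23.3 and 39.9 ± 6.47 at 20, 30 and 40 Gy. RPS27L, a p53 target in other settings, was at 49.6 and 33.2 in the controls and 21.8 to 34.2 in the irradiated libraries, with a log2 change of -0.52 (SE 0.21, adjusted p = 0.204).

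Between 40 Gy and the lower doses, RPL3L was the only one of the 50 called, 2% against 15% of all genes (6.9% called lower) for 20 Gy and 12.2% (6.22% called lower) for 30 Gy. The median change of the 50 was 0.07 at 40 Gy against 20 Gy (0.06 for all genes) and -0.29 against 30 Gy (0.07 for all genes). Both rested on single libraries. Against 20 Gy the median was 0.28 without library 1 and -0.17 without library 3 at 40 Gy, -0.01 without library 1 and 0.21 without library 3 at 20 Gy, and -0.09 beside -0.05 for all genes with equal totals. Against 30 Gy it was -0.04 without library 1 and -0.49 without library 3 at 40 Gy. The count of calls moved with library 1 at 40 Gy as well. Without it, 11 of the 50 were called at 40 Gy against 20 Gy, where 4174 of all genes were, beside 1748 with all libraries. Of the 11, all but RPL3L were higher at 40 Gy, with RPL4, RPL5, RPL6, RPL7, RPL7L1, RPLP0, RPS3A, RPS4X and RPS9 among them. Against 30 Gy 7 of the 50 were called without it, where 3815 of all genes were, beside 1417 with all libraries. Of the 7, RPL4, RPL5, RPL7L1, RPLP0 and RPS4X were higher and RPL36A and RPL3L lower. Without library 3 at 40 Gy, 5 of the 50 were called against 30 Gy (757 of all genes were), RPL36A, RPL3L, RPLP1, RPS20 and RPS28, all lower.

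The genes varied together across libraries. Over the 11 libraries, which share the controls and the scaling of each library, the median Pearson r of log2 FPKM over the 1225 pairs of genes was 0.73, and over the 9 irradiated libraries it was 0.66. RPL3L had the lowest mean r with the others, 0.10. Library 1 at 40 Gy held the lowest value of 34 of the 50 genes and library 1 at 20 Gy that of 9, while a control library held the highest value of 34. When every library was rescaled to the same summed FPKM, library 1 at 40 Gy was the lowest for 4 genes and library 2 at 40 Gy for 24. Across genes, which are not independent, the log2 change in irradiated against control had a Spearman rho of 0.39 with the length of the gene and of 0.15 with its mean level.

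Their level set most of these genes apart from the rest of the table: 44 of the 50 had a mean of at least 100 FPKM, where the median of all genes tested was 6.39, and 30 of the 50 were among the 200 genes with the highest mean. RPS28, RPS24 and RPS2 led the small subunit, and RPL10, RPLP2 and RPLP1 the large. RPS27A, made as a fusion with ubiquitin, averaged 61.0 FPKM and RPS3A 111 FPKM, low among the small-subunit genes.

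The mitochondrial ribosome is built from a separate gene set. Of its 64 genes tested, MRPL52 and MRPS26 fell in irradiated against control and none rose, beside 2.84% of all genes called lower. The count was 4 without library 1 at 40 Gy and 0 without either control, and 1 without library 1 or 3 at 20 Gy, any 30 Gy library or library 2 at 40 Gy. The median was -0.24, beside -0.55 for the cytosolic set (the difference was not tested). MRPL52, a large-subunit protein, was at 44.1 ± 1.03 FPKM in control, 20.7 ± 0.798 at 20 Gy, 24.99 ± 4.28 at 30 Gy and 19.9 ± 2.58 at 40 Gy, a fall of 0.97 (SE 0.16, adjusted p = 0.00759). The adjusted p of MRPL52 was at most 0.115 over the alternatives, of which 16 of 21 kept its call. MRPS26 fell by 0.75 (adjusted p = 0.0327), which 6 of 21 alternatives kept.

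The factors of translation elongation, whose mRNAs carry the same kind of 5′ tract, lay near the ribosomal protein genes. Of the 9 tested with TPT1, which encodes the translationally controlled tumour protein, 7 had a log2 change below 0 in irradiated against control (48.7% of all genes), with a median of -0.54. None was called by limma, where 4.71% of all genes were, and 3 had an unadjusted p under 0.05, all lower (11.2% of all genes). EEF1B2, an exchange factor for the elongation factor that delivers tRNA, was at 538 and 528 FPKM in the controls and 177, 268 and 221 at 20 Gy. EEF1B2 fell by 1.28 (SE 0.28, adjusted p = 0.0321) at 20 Gy, a call kept in 12 of 22 alternatives. TPT1 was at 3610 ± 262 FPKM in control and 1800 ± 138 at 40 Gy and fell by 1.005 (SE 0.26, adjusted p = 0.0473) at 40 Gy, a call kept in 4 of 22 alternatives.

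Ribosome assembly factors build both subunits in the nucleolus and cytoplasm. Of 72 tested, none was called against control at any dose by limma, where 4.23%, 3.03% and 7.39% of all genes were at 20, 30 and 40 Gy. Their medians were -0.19, -0.08 and 0.41 in that order, and at 40 Gy 19 were higher and 1 lower at an unadjusted p under 0.05 (2 lower at 20 Gy and 1 lower at 30 Gy). Of all genes, 11.8%, 8.83% and 12.9% were lower at that level at 20, 30 and 40 Gy. The share of all genes higher at that level is not given here. Without library 1 at 40 Gy 32 of the 72 were called at 40 Gy against control, all higher, and the share of all genes called in that fit is not given here. Compared directly, 22 of the 72 rose and none fell at 40 Gy against 20 Gy, where 8.12% of all genes rose, with a median of 0.64. NCL (nucleolin), NOP58 of the box C/D snoRNP and WDR12 of the PeBoW complex, the 3 with the lowest adjusted p and named after their values were seen, were among them. NCL was at 38.0, 44.1 and 37.2 FPKM at 20 Gy and 59.7, 102 and 111 at 40 Gy and rose by 1.13 (SE 0.24, adjusted p = 0.0148). NOP58 rose by 0.97 (adjusted p = 0.0172) and WDR12 by 0.75 (adjusted p = 0.0129). These calls depended on single libraries. Without library 1 at 40 Gy 48 of the 72 were called, where 4174 of all genes were. Of the 72, 1 was called without library 2 and none without library 3 at 40 Gy, and none without library 1 and 1 without library 3 at 20 Gy. The count was 11 without library 1 and 9 without library 2 at 30 Gy, and 0 in the fit of the compared groups alone.

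Initiation factors bring the small subunit to the mRNA. Of 32 tested, EIF3G, a subunit of the scaffold factor eIF3, fell by 0.87 (SE 0.20, adjusted p = 0.0366) in irradiated against control, a call kept in 8 of 21 alternatives, and no other was called (4.71% of all genes). At 40 Gy against 20 Gy 9 of the 32 rose and none fell (8.12% of all genes rose), with a median of 0.62. They were led by EIF1AX with 1.07 (SE 0.19, adjusted p = 0.00720) and EIF2S1 with 1.43 (SE 0.27, adjusted p = 0.00908). EIF1AX acts in start codon selection and EIF2S1 in delivering the initiator tRNA, and each lost its call in 1 of 22 alternatives. The count was 22 without library 1 at 40 Gy, where 4174 of all genes were called. It was 2 without library 2 or 3 at 40 Gy or library 1 or 3 at 20 Gy, and 5 without library 1 or 2 at 30 Gy. Among 28 regulators of terminal oligopyrimidine mRNAs, LARP4 rose by 0.56 (SE 0.13, adjusted p = 0.0383) in irradiated against control, a call kept in 4 of 21 alternatives, and none fell. That 1 of 28 stands beside 4.71% of all genes called. Of 19 genes of nucleolar stress and p53 none was called in that comparison by limma, beside the same share. At an unadjusted p under 0.05, 1 was higher and 4 were lower, where 11.2% of all genes were lower.

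Subunits of the respiratory chain and ATP synthase, and the proteasome, served as groups of abundant housekeeping genes for comparison. Of 59 respiratory chain and ATP synthase genes none was called in irradiated against control by limma (4.71% of all genes). At an unadjusted p under 0.05, 6 were lower, near the 11.2% of all genes, and the median was -0.19. At 40 Gy against control 4 of them fell and none rose (4.41% of all genes called lower), with a median of -0.37. Of 42 proteasome genes 1 was called lower in irradiated against control, the assembly factor PSMG3, with a median of -0.04. PSMG3 fell by 1.52 (SE 0.21, adjusted p = 0.00374), a call kept in 20 of 21 alternatives.

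As in the ribosome assembly factors, the median of the proteasome genes was below 0 at 20 Gy (-0.27) and 30 Gy (-0.10) and above 0 at 40 Gy (0.30). At 40 Gy against 20 Gy 9 of the 42 rose and none fell (8.12% of all genes rose), with a median of 0.58. That count was 28 without library 1 at 40 Gy, of which 24 were higher, where 4174 of all genes were called. It was 13 without library 2 at 20 Gy, 3 without library 1 or 2 at 30 Gy, and 0 without library 2 or 3 at 40 Gy or library 1 or 3 at 20 Gy. The respiratory chain count against control was 0 or 1 without either control, library 1 or 2 at 30 Gy or library 2 at 40 Gy.

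**Figure D4:**
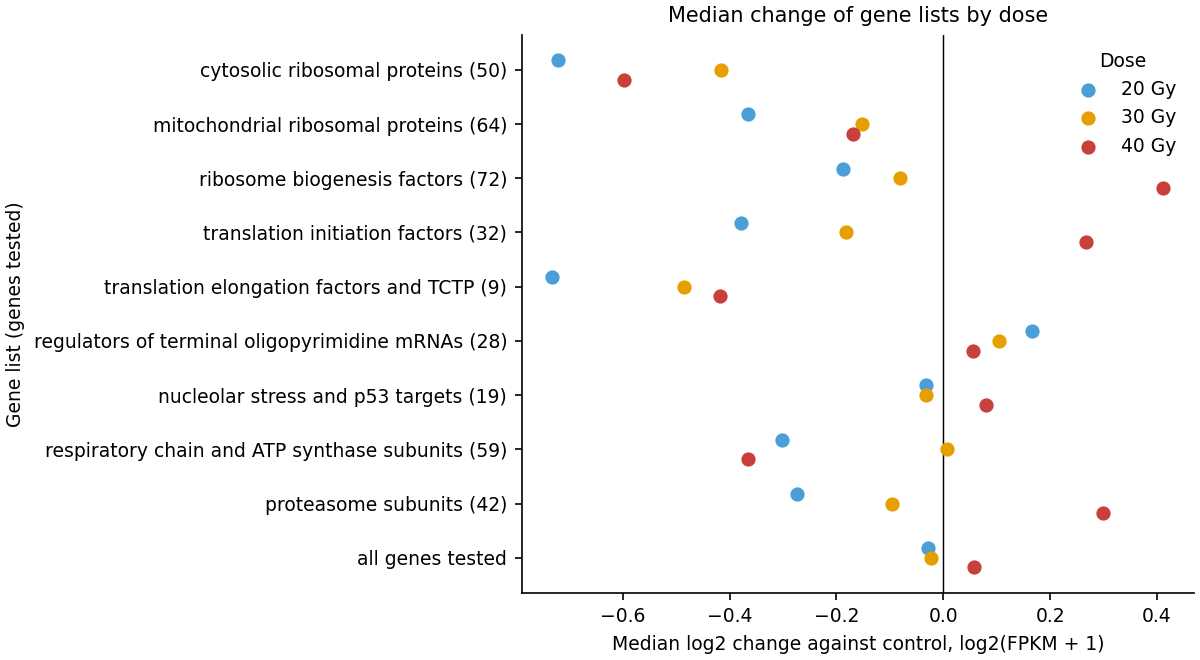
Median log2 change against control of the cytosolic ribosomal protein genes, 8 other gene lists and all genes tested, at 20, 30 and 40 Gy, with the number of genes tested in brackets. The cytosolic ribosomal protein genes sit at -0.72, -0.42 and -0.60, and the ribosome biogenesis factors at -0.19, -0.08 and 0.41.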

How the data were processed

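RNA-seq of 11 pig liver libraries was used as 1 table of FPKM that the authors deposited. HISAT2, Cufflinks and HTSeq and the builds Sscrofa11.1 and mm10 are named in the submitters' processing notes; the sources used here do not give their roles, the annotation or the strand handling. The depth is unknown, so no counting intervals are given. Of 12505 IDs, 10561 were paired with a symbol, and coordinates of all 50 ribosomal protein genes are from RefSeq's Sscrofa11.1 gene table. The 11644 genes that reached 1 FPKM in 2 or more libraries were tested as log2(FPKM + 1) of the deposited FPKM with limma 3.58.1 in R 4.3.3 (4 group means, all 11 libraries, trended variance), so changes are on that scale and understate those of low genes. Benjamini-Hochberg adjustment covered all genes tested, with a threshold of 0.05. The fit was tested on simulated data. The genes named are the 3 lowest and highest by mean and by change in each subunit, all called, and some fixed by name; 3 small-subunit genes are counted but not reported here by name. Members and lists were chosen with earlier results of these data known. Other scalings, pseudocounts, filters, groups and left-out libraries were tried.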

Additional observations from a re-analysis of the deposited data

Results flagged for a closer look

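RPL3L is listed because its response differed between doses in a direct test. Its log2 change was -1.93 at 40 Gy against 20 Gy and -2.13 at 40 Gy against 30 Gy, with adjusted p from limma of 9.73e-04 and 7.03e-04. All 3 libraries at 40 Gy were below all libraries at the lower doses. No group has 4 or more libraries, so a search for single outlying libraries was not made.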

How the results depend on the processing

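The median change of the 50 ribosomal protein genes against control was below 0 in every alternative. Rescaling to equal FPKM totals moved the median of all genes to 0.13 for irradiated against control, 0.17 at 20 Gy and 0.14 at 40 Gy. Relative to it the median of the 50 was -0.53, -0.64 and -0.64, where it was -0.56, -0.69 and -0.65 without rescaling. The depth is unknown, and the cause of the changes was not tested.

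The count of genes called in irradiated against control was 1 with quantile normalization, with either total rescaling (all genes, or all other genes), with a replicate block and with libraries 1 and 2 at 30 Gy averaged. In that order 516, 199, 193, 440 and 337 of all genes were called, beside 548 in the main fit. It was 0 with library 3 at 20 and 30 Gy left out, where 290 of all genes were called. With averaging as well a single 30 Gy sample is left, and the calls were lost there too. At 20 Gy it was 0 with quantile normalization, averaging or leaving out, where 515, 295 and 206 of all genes were called. The call was also lost with both averaging and leaving out. The count was 2 with either rescaling (228 and 233 of all genes). It was 3 with the replicate block (399 of all genes) or only the groups compared (595 of all genes). With only the groups compared it was 1 at 30 Gy (547 of all genes) and 0 at 40 Gy (48 of all genes). With both averaging and leaving out RPL3L kept its call at 40 Gy and RPS28 lost it. At 40 Gy against 30 Gy it was 2 with a pseudocount of 0.1 or median-ratio scaling (1425 and 1427 of all genes). With libraries 1 and 2 at 30 Gy averaged and library 3 at 20 and 30 Gy left out, a single 30 Gy sample is left. RPL3L then lost its call, with a log2 change of -2.21. Leaving out 1 library gave 0 to 9 for irradiated against control, 0 to 20 at 20 Gy, 0 to 3 at 30 Gy, 1 to 11 at 40 Gy and at 40 Gy against 20 Gy, and 1 to 7 at 40 Gy against 30 Gy. The replicate numbers did not consistently pair the libraries. Between 20 and 30 Gy, deviations from the group means correlated at -0.62 for libraries 1, 0.65 for libraries 2 and 0.57 for libraries 3. Pairs with different numbers reached 0.74 (library 2 at 20 Gy, library 1 at 30 Gy) and 0.64 (library 1 at 20 Gy, library 3 at 30 Gy). The block moved no other count.

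The median at 20 Gy was -0.37 with quantile normalization, -0.47 with equal totals and -0.49 with totals of all other genes, and at 30 Gy -0.19 with quantile normalization. That normalization also gave 9, 23 and 17 genes below every control for irradiated against control, 30 Gy and 40 Gy, with no share of all genes computed. The count higher in every 30 Gy than in every 20 Gy library was 41 with library 3 of both left out and 15 to 35 without 1 library (alternatives added after seeing the data). Without the 3 most abundant genes of each subunit the large to small ratio was 0.87 in control and 0.89 at 40 Gy. With equal totals the ratio of sums to control was 0.76 (large) and 0.76 (small) at 20 Gy and 0.83 (large) at 30 Gy.

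Changes near 0 in irradiated against control turned sign. Under quantile normalization these were RPS18 (0.0477), RPLP2 (0.141), RPL7L1 (0.05005), RPS9 (0.0409), RPS7 (0.0472), RPSA (0.172) and RPL3 (0.213). Equal totals gave RPL7L1 0.0989, RPSA 0.120 and RPL3 0.109, and totals of all other genes 0.0826, 0.103 and 0.0918. RPL36A was at -0.0637 with the block and -0.00710 with library 3 at 20 and 30 Gy left out (-0.00674 with averaging too), which gave RPL3 0.0156 in both cases. Leaving out 1 library gave RPSA -0.148 to 0.0854, RPL36A -0.114 to 0.148, RPL7L1 -0.0985 to 0.0448 and RPL3 -0.0778 to 0.0187.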
